A study of Mus musculus with 14 samples.

Results

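App, Psen2, Bace1, Apoe, Clu, Bin1, Picalm and Sorl1 are mouse counterparts of genes tied to Alzheimer disease. They were chosen by gene symbol, with no threshold on a measured value, and make up 8 of the 55422 entries of the count table. Their RNA was measured in brainstem of 7 mice, all carrying TH-Cre and Slc6a2-eGFP/Rpl10a on a C57Bl/6 background. At 2 to 3 months of age the mice received an infusion into the locus coeruleus, the main noradrenergic nucleus of the brain. The infused agent is labelled P364S mutant human tau in 4 mice (animals B, C, L and M) and EYFP, a fluorescent protein, in 3 (animals H, I and K). Tau was measured as RNA of an infused construct, with counts given below. From each mouse 1 library came from the total homogenate (pre-IP) and 1 from RNA immunoprecipitated with the tagged ribosomal protein Rpl10a (IP), giving 14 libraries of polyadenylated RNA. The tag is driven by a transgene of Slc6a2, the noradrenaline transporter, so that the IP is meant to hold RNA on the ribosomes of noradrenergic neurons. Both treatments share the Cre and the tag, and no uninfused animals were analysed here.

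The 8 genes have different roles, from the cutting and sorting of the App protein to endocytosis and lipid transport. App encodes the amyloid precursor protein, a membrane protein that Bace1, the beta-secretase, cuts first and that the gamma-secretase complex, in which Psen2 is a catalytic subunit, cuts next to release amyloid beta. Sorl1 is a sorting receptor that carries the precursor between endosomes and the Golgi, Picalm is an adaptor of clathrin-coated pits, and Bin1 is a membrane-bending protein of endocytosis with a large role in myelin-forming cells as well as in neurons. Apoe and Clu encode secreted lipoproteins that carry lipid and bind amyloid beta, and in brain both are made mainly by astrocytes.

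On the GRCm38 build the genes lie on 7 chromosomes. App spans 84949685 to 85173766 of chromosome 16, Psen2 180227004 to 180263438 of chromosome 1, Apoe 19696109 to 19699188 and Picalm 90130213 to 90213465 of chromosome 7, Bace1 45838580 to 45864399 and Sorl1 41964720 to 42124297 of chromosome 9, Clu 65968483 to 65981547 of chromosome 14, and Bin1 32377230 to 32435737 of chromosome 18. Counts cover all exons of a gene, untranslated parts included. Of the 6348 exonic bases of Bace1, 2061 are also exonic in genes of the opposite strand, among them Rnf214. Whether the counting used strand is not given in the sources used here, so Bace1 values may hold reads of those genes and are uncertain. The shared stretches are shorter in Bin1 (256 bases), Sorl1 (185) and App (113), and there are none in Psen2, Apoe, Clu and Picalm.

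Total counts ran from 41843489 to 65664551 per library. The RNA integrity number was 7.7 to 9 in all libraries but the EYFP IP of animal I, where it was 4.2. IP RNA came at 0.1 to 0.8 ng per microlitre in tau animals and 0.7 to 2.8 in EYFP animals. The infused tau construct had 3527 to 47177 counts in tau libraries and 2 to 18 in those of H and I, but 408 and 398 in the libraries labelled EYFP of animal K. Animal M is labelled female, and its pre-IP and IP libraries held 674 and 1153 counts of 4 Y-linked genes, against at most 4 in the other libraries labelled female. Counts of Xist were 0 in its pre-IP and 21 in its IP library. They were 16 to 120 in the other libraries labelled female and 0 in those labelled male, so the libraries of M were unlike in this. Leaving out I, K or M changed which of the 8 genes passed the test in 1 case, Bace1 without I, given with that gene. All 12 noradrenergic markers, such as Dbh and Slc6a2, rose in IP against pre-IP. The mean log2 ratio of IP to pre-IP over these 12 markers was 1.71 to 4.69 in tau animals and 0.63 to 0.91 in EYFP animals, so the fraction called IP was enriched for noradrenergic RNA to very different degrees in the 2 treatments. In bulk libraries fewer cells of a type and less RNA per cell cannot be told apart.

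Set against gene length, the 8 genes covered a wide range and kept much the same order in both fractions. Levels between genes are given as CPM (counts per 1e6 counts of the library) per kilobase of exon. In pre-IP, Apoe was the highest at 767 ± 129 CPM per kilobase (SD, n = 7), followed by Clu at 212 ± 30.3 and Bin1 at 110.2 ± 10.3. App came next at 42.7 ± 8.40, and Bace1 (9.41 ± 1.04), Sorl1 (9.01 ± 1.47) and Psen2 (7.24 ± 0.74) formed a lower group with overlapping ranges. Picalm was the lowest, at 1.57 ± 0.26. The pair of astrocyte-made lipoproteins thus stood above App, and the secretase genes Bace1 and Psen2 far below it. The length used is that of all annotated exons together, 12996 bases for App, 15732 for Picalm, 4117 for Bin1 and 4332 for Psen2. Part of the order rests on that length. Without it, mean pre-IP App was 541 CPM with EYFP and 565 with tau, above Bin1 at 443 and 461. In IP, mean Picalm was then 43.2 and 34.5 CPM, above Psen2 at 30.7 and 32.7.

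In IP the levels per kilobase were 727 ± 228 for Apoe, 185 ± 30.1 for Clu, 80.9 ± 11.5 for Bin1 and 49.8 ± 14.2 for App (SD, n = 7). The ranges of Bin1 and App overlapped in IP, with App lower in 7 of 7 libraries, whereas in pre-IP they did not overlap. Sorl1 (7.77 ± 2.28), Bace1 (7.58 ± 1.56) and Psen2 (7.34 ± 0.57) overlapped again, and Picalm stayed lowest at 2.43 ± 0.47. The lowest level of any of the 8 genes in any library, 19.1 CPM of Picalm, was far above the floor of 3 counts, which is at most 0.0717 CPM in these libraries and covers counting error only.

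**Figure D1:**
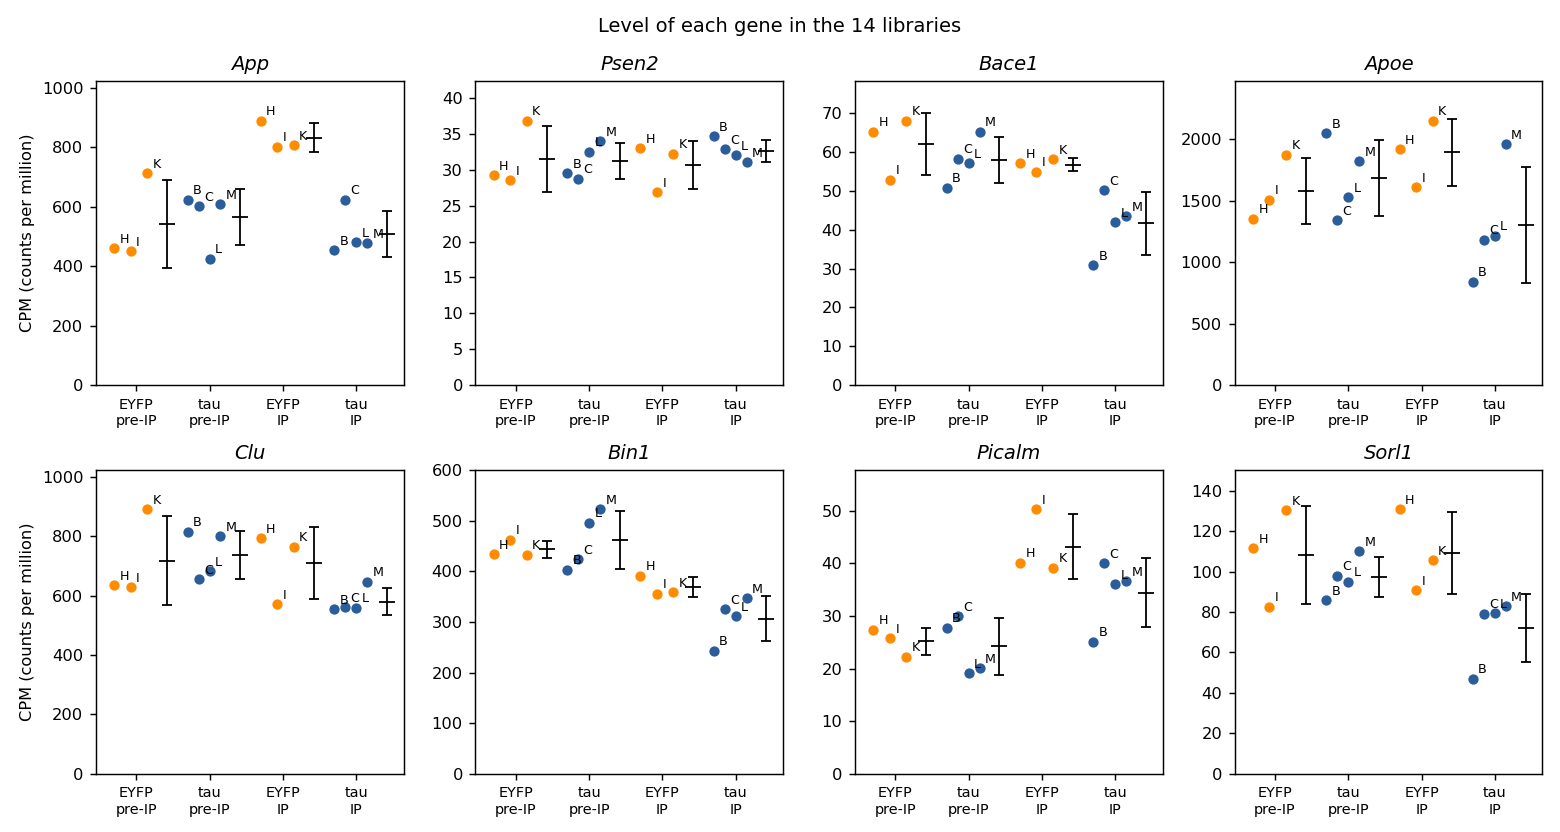
CPM of each of the 8 genes (vertical axis, from 0, a scale of its own in each panel) in the 14 libraries, split into EYFP and tau, pre-IP and IP. Points are libraries marked by animal letter and the bar beside them is the mean with 1 SD. App in the EYFP IP libraries (801.9 to 889.8 CPM) stands above the tau IP libraries (453.9 to 623 CPM), and the Picalm mean is higher in IP than in pre-IP in both treatments.

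The first comparison asked how these genes differ between the ribosome-bound IP and the total homogenate over both treatments. Picalm rose in IP and Bin1 fell, while the other 6 genes did not pass the test. These are 2 of 8 genes, against 31% of all genes tested that passed in this comparison (16.3% higher and 14.7% lower), so that the count of 2 lay near the background. The median log2 fold change was -0.11 over the 8 genes and -0.0036 over all 18792 genes tested.

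Picalm, the clathrin adaptor, had pre-IP levels of 27.4, 25.8 and 22.3 CPM in animals H, I and K and 27.8, 30.0, 19.1 and 20.1 CPM in B, C, L and M. Its IP levels in the same order were 40.2, 50.3 and 39.2 CPM in EYFP animals and 25.1, 40.1, 36.1 and 36.6 CPM in tau animals. The IP level of animal B was the only one to fall within the pre-IP range. The fitted change was 1.59-fold, or 0.67 on the log2 scale with an SE of 0.12 and an adjusted p of 0.000744 by edgeR. That fit did not pair the fractions of a mouse. With an animal block that pairs them, it was 0.68 (adjusted p = 0.00111, edgeR, where 32.6% of all genes passed). Within each animal the log2 ratio of IP to pre-IP was above 0, at 0.61, 0.92 and 0.76 in H, I and K and at 0.11, 0.49, 0.95 and 0.83 in B, C, L and M. The mean log2 ratio of the noradrenergic markers was 0.74, 0.91 and 0.63 in H, I and K. It was 4.69, 3.63, 3.55 and 1.71 in B, C, L and M, and its relation to the Picalm ratio was not tested. The fitted change of Picalm was 0.78 in EYFP animals alone (adjusted p = 0.0221) and 0.56 in tau animals alone (adjusted p = 0.0495, edgeR). Of all genes tested, 6.38% passed in EYFP animals alone and 20.7% in tau animals alone.

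Bin1, the endocytic membrane-bending protein, moved the opposite way. Pre-IP levels were 434, 462 and 433 CPM in animals H, I and K and 403, 424, 496 and 522 CPM in B, C, L and M. IP levels were 392, 355 and 358.5 CPM in EYFP animals and 243, 325, 311 and 347 CPM in tau animals. All 7 IP libraries lay below all 7 pre-IP libraries, and Bin1 was the only 1 of the 8 genes whose fractions did not overlap (9.46% of all genes tested did not, 5.77% as lower in IP). The fitted change was 0.753-fold, or -0.41 as a log2 value with an SE of 0.095 (adjusted p = 0.00417, edgeR). With the animal block it was -0.40 (adjusted p = 0.00587, edgeR). The log2 ratio per animal was -0.09, -0.42 and -0.33 in H, I and K and -0.47, -0.31, -0.64 and -0.62 in B, C, L and M, below 0 in 7 of 7 animals. In tau animals alone the change was -0.54 (adjusted p = 0.0216). In EYFP animals alone it was -0.27 and did not pass (adjusted p = 0.286, edgeR), and the test of the difference between treatments, given below, did not pass either.

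Beside the fall of Bin1, markers of oligodendrocytes, which express Bin1 strongly, were also lower on balance in IP. Of 10 such markers 4 fell and 1 rose (14.7% and 16.3% of all genes tested), with a median log2 fold change of -0.46. This was not particular to oligodendrocytes. The median was -0.24 for astrocyte, -0.12 for microglia, -0.14 for vascular, -0.30 for choroid plexus and ependyma, and -0.18 for other neuron markers. The summed level of the oligodendrocyte markers was 10511 to 13998 CPM in pre-IP, 9281 to 13744 CPM in EYFP IP and 3839 to 10857 CPM in tau IP. None of them was at 0 in any library. The mean log2 ratio of IP to pre-IP over the oligodendrocyte markers was -0.02, -0.01 and -0.05 in H, I and K. It was -1.15, -0.59, -0.34 and -0.03 in B, C, L and M. The part of oligodendrocyte RNA in the Bin1 result was not tested.

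Bace1 came close to the threshold, with levels of 50.9 to 68.1 CPM in pre-IP and 30.9 to 58.2 CPM in IP and a log2 fold change of -0.29 with an SE of 0.11 (adjusted p = 0.05197, edgeR). When the 2 fractions of each mouse were paired by an animal block, it was -0.28 and passed (adjusted p = 0.0443), as it did without animal I (-0.34, adjusted p = 0.0404, where 27.7% of all genes passed) and by DESeq2's Wald test (adjusted p = 0.0378, 35.3% of all genes). With the block 3 of the 8 genes passed, against 32.6% of all genes. The other 5 genes gave no call: App had a log2 fold change of 0.22 (adjusted p = 0.311), Psen2 0.07 (0.677), Apoe -0.07 (0.805), Clu -0.16 (0.342) and Sorl1 -0.21 (0.278). For Psen2 the 95% interval ran from -0.17 to 0.31, and for Apoe from -0.43 to 0.29.

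App and Apoe are the genes for which the animals of the 2 treatments gave the most unlike ratios of IP to pre-IP. App had log2 ratios of 1.01, 0.79 and 0.12 in the EYFP animals H, I and K and of -0.21, 0.12, 0.21 and -0.39 in the tau animals B, C, L and M. In H and I both a high IP level and a low pre-IP level contributed, while K had a pre-IP level of 713 CPM, the highest of all. Apoe had ratios of 0.57, 0.05 and 0.14 in H, I and K and of -1.03, -0.11, -0.29 and 0.08 in B, C, L and M. Animal B held the lowest Apoe ratio and also the highest mean ratio of the noradrenergic markers, 4.69, and the lowest of the astrocyte markers, -0.98. It was likewise lowest for the markers of oligodendrocytes (-1.15), microglia (-0.86), vessels (-0.59), choroid plexus and ependyma (-1.22) and other neurons (-0.88). The astrocyte markers had mean ratios of -0.35, -0.27 and -0.31 in C, L and M and of 0.18, 0.04 and -0.03 in H, I and K. How the Apoe ratio relates to those of the markers was not tested.

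The ratios of the remaining genes were smaller or mixed. Sorl1 had log2 ratios of 0.29, 0.09 and -0.36 in H, I and K and of -0.61, -0.24, -0.22 and -0.44 in B, C, L and M. Bace1 was just above 0 in I (0.0139) and below 0 in every other animal, with a lowest value of -0.62 in M. Clu ran from -0.34 to -0.15 in tau animals and from -0.28 to 0.38 in EYFP animals, and Psen2 from -0.17 to 0.49 and from -0.25 to 0.23. Clu, Sorl1, Bace1 and Bin1 were below 0 in 4 of 4 tau animals.

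**Figure D2:**
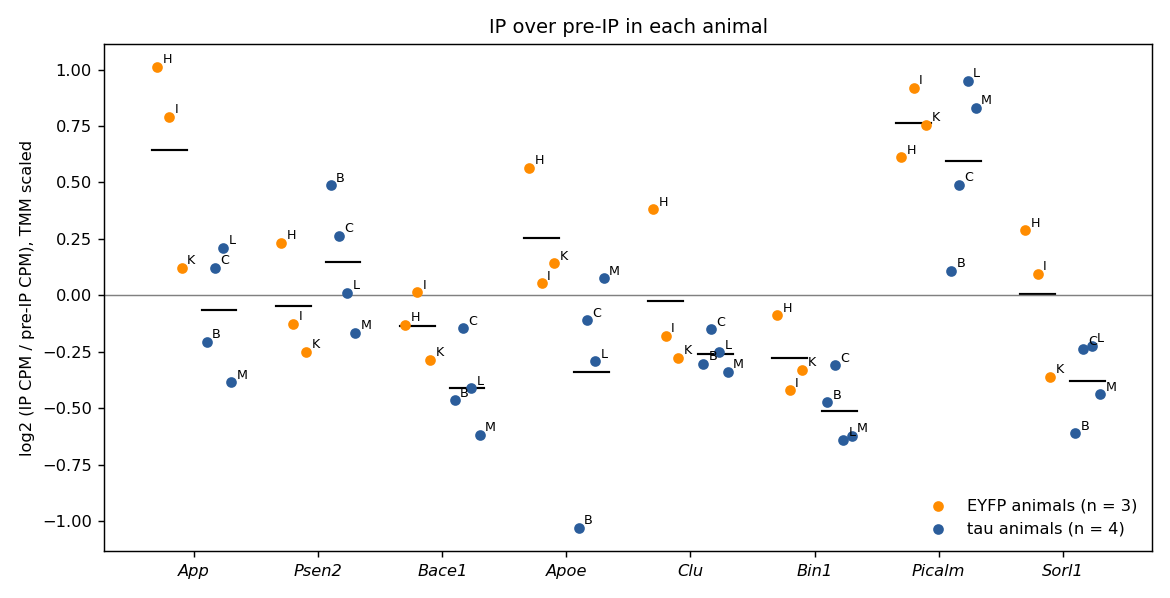
Log2 ratio of IP CPM to pre-IP CPM in each animal (vertical axis, scaled by TMM) for the 8 genes, with the 3 EYFP and the 4 tau animals in different colours, a letter for each animal and a bar at each mean. Picalm lies above 0 and Bin1 below 0 in all 7 animals, and App is highest in the EYFP animals H and I.

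The second comparison asked whether tau infusion changed these genes in the IP. None of the 8 passed, and 0% of the 19472 genes tested passed (edgeR, smallest adjusted p of any gene 0.318). At an unadjusted p under 0.05 stood 2 of the 8, App and Sorl1, against 12% of all genes. App, Bace1, Bin1 and Sorl1 were lower in all 4 tau IP libraries than in all 3 EYFP IP libraries, 4 of 8 against 9.22% of all genes tested lower in this way and 15.6% in either direction. On TMM-scaled sizes Bin1 overlapped and 3 of 8 did not, against 5.84% lower and 14.5% in either direction. The fitted change was below 0 for 7 of the 8, with a median of -0.29 against -0.08 over all genes tested.

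App, the amyloid precursor, was at 889.8, 802 and 808 CPM in the EYFP IP libraries of H, I and K and at 453.9, 623, 481 and 476 CPM in the tau IP libraries of B, C, L and M. The tau library of C was nearest to the EYFP range and still below it. The mean was 509 ± 77.4 CPM (SD, n = 4) with tau and 833 ± 49.1 CPM (SD, n = 3) with EYFP, a log2 fold change of -0.61 (SE 0.14, 95% interval -0.93 to -0.28) and an edgeR adjusted p of 0.318. DESeq2's Wald test gave -0.58 and called it (adjusted p = 0.0287), the only call for any of the 8 genes in this comparison by the tools run. That test called 1.76% of all genes. The libraries carry numbers up to 11 or from 17 on, and the difference in mean log2 CPM was -0.47 in the first range and -0.73 in the second, which holds 1 EYFP IP library.

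Of the enzymes that cut App, Bace1 was fitted below 0 and Psen2 above 0. Neither passed, and the difference between them was not tested. Bace1 was at 57.2, 55.0 and 58.2 CPM in EYFP IP (H, I and K) and at 30.9, 50.2, 42.0 and 43.5 CPM in tau IP (B, C, L and M). The EYFP libraries lay close together and above each tau library, and the log2 fold change was -0.35 (SE 0.16, adjusted p = 0.427, edgeR). Psen2 was at 33.0, 26.9 and 32.2 CPM in EYFP IP and at 34.7, 32.9, 32.0 and 31.0 CPM in tau IP. It was the only one of the 8 with a fitted value above 0, at 0.20 (95% interval -0.17 to 0.58, adjusted p = 0.657), and its groups overlapped.

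Of the sorting and endocytosis genes, Sorl1 had the lowest fitted value. It was at 131, 90.9 and 105.6 CPM in EYFP IP (H, I and K) and at 47.1, 79.1, 79.5 and 83.0 CPM in tau IP (B, C, L and M), with animal B far below the rest. The log2 fold change was -0.50 (SE 0.20, 95% interval -0.94 to -0.06, edgeR adjusted p = 0.368). Within the library number ranges the difference in mean log2 CPM was -0.64 and -0.36. Bin1, with the IP levels given above, had a fold change of -0.16 on the log2 scale (95% interval -0.47 to 0.14, adjusted p = 0.659). Picalm had -0.23 (95% interval -0.61 to 0.16, adjusted p = 0.624), and its tau range of 25.1 to 40.1 CPM overlapped the EYFP range of 39.2 to 50.3 CPM.

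Of the lipoprotein genes, Apoe varied widely between tau IP libraries and Clu little. Apoe was at 1920.2, 1611 and 2151 CPM in EYFP IP (H, I and K) and at 841, 1183, 1217 and 1961 CPM in tau IP (B, C, L and M). Animal M alone carried Apoe into the EYFP range, and without it the groups of Apoe and Clu did not overlap either. That left 6 of 8 lower in tau without overlap, against 17.1% of all genes without M. This was the largest count with any 1 animal left out. Without each of the other animals it was 4 or 5 of 8, against 10.5% to 17.1% of all genes. The fitted change of Apoe was -0.45 (95% interval -0.99 to 0.08, edgeR adjusted p = 0.489). Clu was at 793, 570.2 and 765 CPM in EYFP IP and at 553, 561, 558 and 646 CPM in tau IP, with a log2 fold change of -0.18 (95% interval -0.54 to 0.17, adjusted p = 0.671).

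Markers of other cell types were lower in the tau IP libraries alongside these genes. The fitted change was below 0 for 10 of 10 astrocyte, 10 of 10 oligodendrocyte, 10 of 10 microglia, 8 of 8 vascular, 7 of 8 choroid plexus and ependyma, and 9 of 9 other neuron markers, with median log2 values of -0.51, -0.48, -0.41, -0.30, -0.77 and -0.58. None of these markers passed the test. Summed astrocyte markers ran from 2369 to 4867 CPM in tau IP and from 4217.5 to 5456 CPM in EYFP IP, and summed markers of other neurons from 349 to 613 CPM and from 824 to 859.6 CPM. Summed microglia markers ran from 229.5 to 426 CPM and from 391 to 453.9 CPM. Vascular markers summed to 47.3 to 80.6 CPM in tau IP and 77.4 to 109 CPM in EYFP IP, and those of choroid plexus and ependyma to 64.6 to 1210.4 CPM and 1123 to 1865 CPM. The 12 noradrenergic markers summed to 1070.1 to 7168 CPM in tau IP and 564 to 642 CPM in EYFP IP, and their fitted change was above 0 for 12 of 12, with 0 past the test. No marker was at 0 counts in any library. The part of the other cell types in the lower App, Bace1, Sorl1 and Apoe levels was not tested.

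The third comparison asked the same of the total homogenate. None of the 8 genes passed there (0% of 19197 genes passed), none had an unadjusted p under 0.05 (2.84% of all genes did), and DESeq2 and limma voom called none of the 8 either. None of the 8 had groups that did not overlap, against 3.12% of all genes. The edgeR log2 fold changes ran from -0.14 for Sorl1 to 0.10 for Apoe, with 4 above and 4 below 0, a median of 0.02 and an adjusted p of 0.9998 for each of the 8 genes. The 95% intervals still allowed changes of some size, down to -0.51 for Sorl1 and up to 0.51 for App.

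App was at 460.2, 450.3 and 713 CPM in the EYFP pre-IP libraries of H, I and K. It was at 624, 601, 426 and 609 CPM in the tau pre-IP libraries of B, C, L and M, with partial overlap. The sign of its difference followed the library number range: tau minus EYFP was 0.47 in mean log2 CPM among numbers up to 11 and -0.52 among numbers from 17 on, where K is the only EYFP library. Apoe (0.26 and -0.21), Clu (0.25 and -0.31) and Picalm (0.16 and -0.22) changed sign in the same way, and Psen2 did so as well (0.06 and -0.18). Bin1 changed sign the opposite way (-0.07 and 0.20), and Bace1 and Sorl1 were below 0 in both ranges. Without K, 7 of the 8 fitted values were above 0, and without H only 1 was.

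The homogenate levels of the lipoproteins were 1353, 1509.6 and 1874 CPM of Apoe in H, I and K and 2049, 1342, 1527 and 1820.3 CPM in B, C, L and M. Clu was at 635, 628 and 890.2 CPM and at 815, 655, 682 and 799 CPM in the same animals. The animals of each treatment thus spanned nearly the same range for both genes. Sorl1 was at 112, 82.7 and 130.4 CPM with EYFP and at 85.9, 98.0, 95.1 and 110.05 CPM with tau. Bace1 ran from 52.9 to 68.1 CPM and from 50.9 to 65.2 CPM, and Psen2 from 28.5 to 36.8 CPM and from 28.7 to 34.0 CPM. Without animal I, Bace1 and Sorl1 were lower in tau with no overlap, as were 6.37% of all genes. Without K, Clu was higher in tau with no overlap, as were 5.3% of all genes.

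Whether the effect of tau differed between IP and homogenate was tested with an interaction term for treatment by fraction. None of the 8 genes passed (0% of 20495 genes passed, edgeR), and DESeq2 and voom called none of them. App had the lowest value, -0.67 on the log2 scale (SE 0.28, 95% interval -1.26 to -0.08, edgeR adjusted p = 0.816), and was the only one of the 8 with an unadjusted p under 0.05, against 5.97% of all genes. That unadjusted call was lost without H (-0.50), without I (-0.61) or without M (-0.61), with the value of App still below 0. With the fractions of each animal paired by a block, App (-0.71, adjusted p = 0.531) and Apoe (-0.59, adjusted p = 0.567) had an unadjusted p under 0.05, 2 of 8 against 8.51% of all genes. Apoe followed at -0.55 (adjusted p = 0.824), Sorl1 at -0.36 (0.862), Bace1 at -0.26 (0.872), Bin1 at -0.24 (0.867), Clu at -0.23 (0.915) and Picalm at -0.19 (0.924), and Psen2 was at 0.21 (0.915). The median was -0.25 over the 8 genes and -0.05 over all genes tested.

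**Figure D3:**
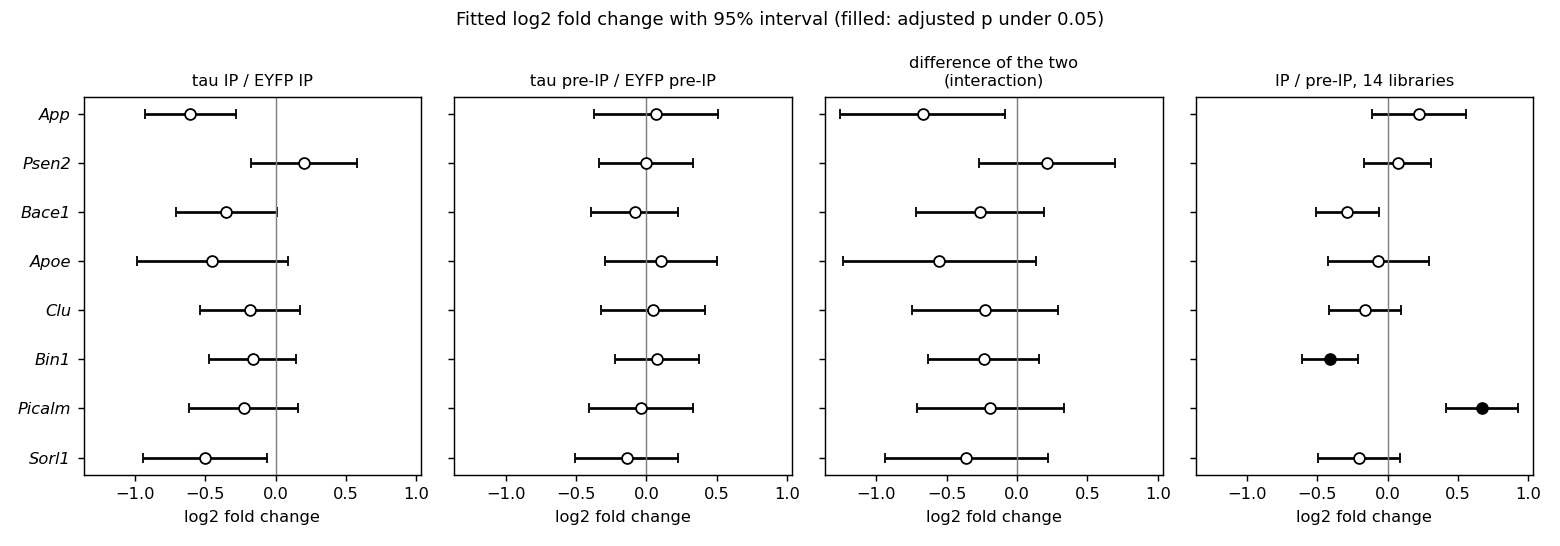
Fitted log2 fold change (horizontal axis) with its 95% interval for each of the 8 genes in 4 comparisons: tau against EYFP in IP, tau against EYFP in pre-IP, the interaction of both, and IP against pre-IP. Filled points passed an adjusted p under 0.05. The points filled are Picalm (0.67) and Bin1 (-0.41) in IP against pre-IP, and the pre-IP values of all 8 genes lie between -0.14 and 0.10.

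Related genes were taken from 7 lists, called pathway lists here, with 81 genes, all of them tested. In IP against pre-IP, 11 of the 81 rose and 22 fell, with a median log2 fold change of -0.13. This is 33 genes called, against 31% of all genes. In the other comparisons none of the 81 passed the test (edgeR). In tau IP against EYFP IP 24 were fitted above and 57 below 0, and the groups did not overlap for 15 of the 81, with 14 of them lower in tau (against 15.6% of all genes, 9.22% lower).

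The counts of each list in IP against pre-IP stand against 16.3% of all genes tested that rose and 14.7% that fell. Among the App relatives and adaptors 2 of 8 fell in IP, both of them adaptor proteins that bind the App tail. Apba1 had a log2 fold change of -0.69 with an SE of 0.11 (adjusted p = 0.000353, edgeR) and Apbb1 of -0.34 (adjusted p = 0.0106). Of 9 secretase genes 1 rose and 3 fell. Of 6 genes of amyloid beta breakdown 2 fell, the peptidases Ace (-0.92, adjusted p = 0.00118) and Ece1 (-0.60, adjusted p = 0.00369).

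The endocytosis and sorting list, to which Bin1, Picalm and Sorl1 belong by function, split. Of its 25 genes 7 rose and 8 fell, against 16.3% and 14.7% of all genes tested. Cd2ap, a scaffold of actin and endocytosis that is itself a risk gene, rose 3.07-fold, a log2 fold change of 1.62 with an SE of 0.21 (adjusted p = 8.04e-05, edgeR), more than Picalm. Gga3, which sorts Bace1 towards lysosomes, fell by 0.86 (adjusted p = 3.24e-05), the clathrin adaptor subunit Ap2a1 by 0.77 (adjusted p = 0.000335) and the retromer subunit Vps26b by 0.50 (adjusted p = 0.00219). Clathrin adaptors thus changed in both directions, Picalm up and Ap2a1 down. Of 11 genes of lipoprotein handling 1 rose and 3 fell, and Lrp10, a receptor of that family, fell by 0.63 (adjusted p = 0.00245). Of 9 microglial risk genes none rose and 3 fell, and of 13 other risk genes 2 rose and 1 fell.

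In tau IP against EYFP IP the smallest p-value in each direction among the 81 belonged to Psenen, a gamma-secretase subunit, for genes fitted higher and to Apba2, an App adaptor of neurons, for genes fitted lower. Psenen was at 100.03 to 139 CPM in tau IP and 85.0 to 93.3 CPM in EYFP IP, a log2 fold change of 0.50 that did not pass (edgeR adjusted p = 0.342). Apba2 was at 74.6 to 110.6 CPM and at 148 to 162 CPM, a log2 fold change of -0.61 (adjusted p = 0.318), close to the value of App itself. The groups were apart for both. In pre-IP the smallest p-values for higher and for lower were those of Spi1, a myeloid transcription factor (0.31), and Lrp8, an Apoe receptor (-0.55), each with an adjusted p of 0.9998. In the interaction they were, in the same order, those of the retromer subunit Vps29 (0.50, adjusted p = 0.823) and of Apba2 (-0.66, adjusted p = 0.699).

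**Figure D4:**
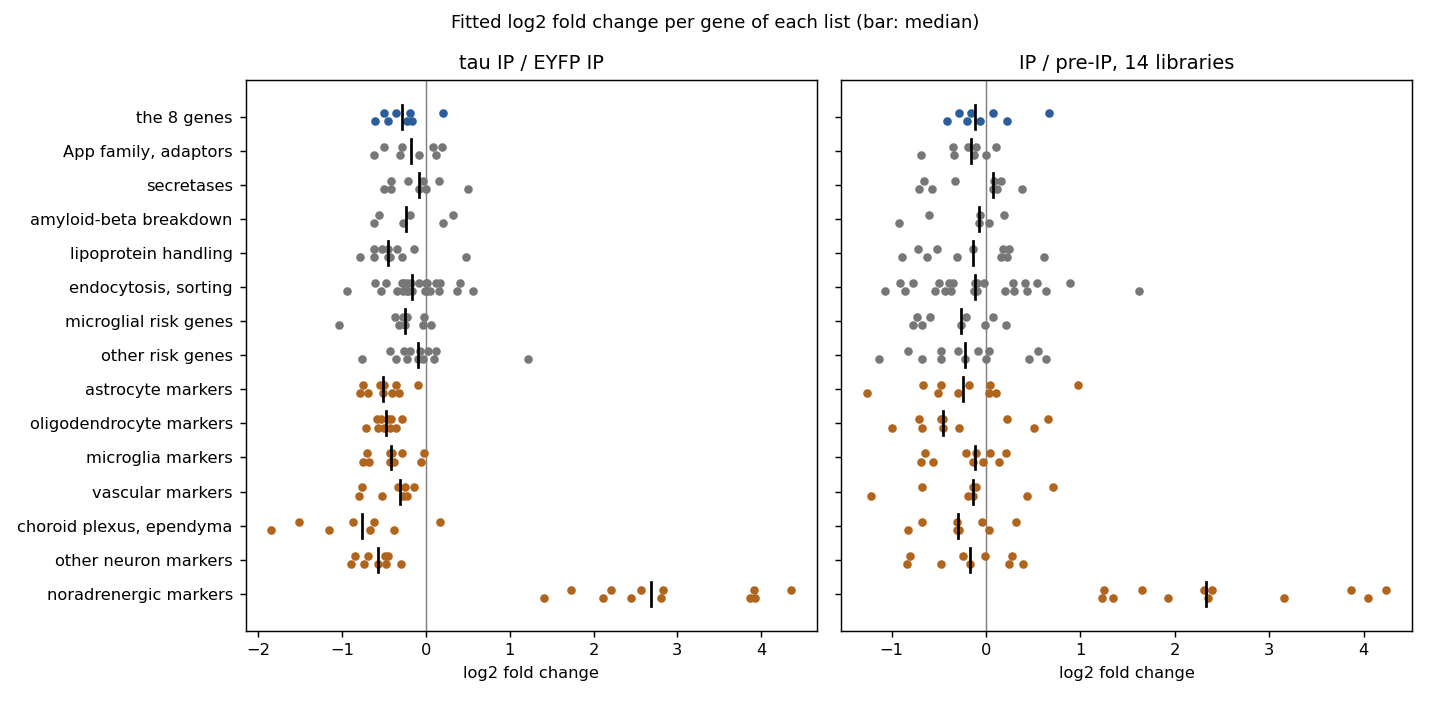
Fitted log2 fold change (horizontal axis) of each gene in the set of 8, the 7 pathway lists and the 7 marker lists, in tau IP against EYFP IP and in IP against pre-IP. Points are genes and the bar is the median of the list. In tau IP against EYFP IP the noradrenergic markers lie to the right (median 2.69), while the medians of the 8 genes (-0.29) and of the 6 marker lists of other cell types lie to the left of 0.

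Likeness of a gene to the 8 was measured over the 14 libraries as the root mean square difference of log2 CPM, each gene centred on its own mean, among 15082 genes. Being libraries of 2 fractions and 2 treatments, the 14 points share animals and scaling, and the measure is a description. The gene most like App was Nsf, which recycles the machinery of vesicle fusion, with a difference of 0.16 where App itself varied by 0.34 around its mean, followed by Hsd17b4 (0.16). For Apoe these were Ptgds, the prostaglandin D synthase (0.10), and C1qb, a complement subunit (0.12), with 0.33 for Apoe itself. For Clu they were the lysosomal proteases Ctsf (0.08) and Ctsd (0.09), with 0.22 for Clu itself.

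The nearest genes were Dnajc18 (0.08) and Meak7 (0.10) for Bace1, Maea (0.09) and Sult4a1 (0.09) for Psen2, and Dnajc11 (0.05) and Itpk1 (0.08) for Bin1. For Picalm they were Trim2 (0.11) and Sesn3 (0.12), and for Sorl1 Dnaaf9 (0.12) and Ogdhl (0.14). Among the 8 themselves, Bace1 was closest to Sorl1 (0.15) and to Bin1 (0.16), and the pair farthest apart was Bin1 and Picalm (0.60), the genes that passed the test in opposite directions between the fractions.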

How the data were processed

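Counts of reads per gene and library were deposited by the authors, not normalized. FastQC, Trim Galore, STAR, featureCounts, GRCm38 and mm10 are named in the submitters' processing notes, and versions, settings and strand use are not given in the sources used here. The deposited gene table gives, per the file headers, a gene length in bases, and the deposited sample sheet the RNA integrity number (a score), the RNA concentration and the percent of high-quality bases, which was not used. Symbols came from the gene table, and 3663 of the 3710 entries without a row were named from GENCODE M21.

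Tests across genes used edgeR 4.0.16 (R 4.3.3), its quasi-likelihood F test with filterByExpr, TMM scaling and Benjamini-Hochberg adjustment over all genes tested, at a threshold of 0.05. Tau and EYFP were compared within each fraction, and IP with pre-IP with treatment as a term. Printed CPM are per library total, and ratios per animal use TMM sizes and a prior count of 2. Animals are the replicates. The main fits of IP against pre-IP and of the interaction had no animal term, so both libraries of a mouse entered as separate units. Fits with an animal block are given beside them. The animal letter in the titles pairs the fractions (correlation of deviations 0.147 to 0.359 over 7 animals), and no replicate number pairs treatments. Other settings were DESeq2 1.42.0, limma 3.58.1 voom, other filters, covariates and each animal left out. The fits were tested on simulated data.

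All 8 genes were named in each comparison. From each pathway list up to 3 genes a direction were named, the largest past the threshold with groups apart, or, where none passed in any list, the smallest p in each direction, and for each of the 8 the 2 genes most like it. A gene that this rule names is not reported here. The members and lists were chosen with earlier results of these data known.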

Additional observations from a re-analysis of the deposited data

Results flagged for a closer look

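In 4 of the 24 sets of tau libraries or ratios checked, each of 4 animals, 1 animal lay so far from the others that its gap to the nearest, as a share of the whole range, passed Dixon's 95% critical value. Chance flags about 1 in 20 such sets. App in tau IP was 623 CPM in animal C, with 481 CPM the nearest, and it was 426 CPM in tau pre-IP of animal L, with 601 CPM the nearest. Clu in tau IP was 646 CPM in animal M, with 561 CPM the nearest. Sorl1 in tau IP was 47.1 CPM in animal B, with 79.1 CPM the nearest. Animal B had the highest mean log2 ratio of noradrenergic markers (4.69) and animal M the lowest of the tau animals (1.71). The tau IP library of B also had the lowest RNA concentration, 0.1 ng per microlitre. It had the fewest genes with a count, 20813, against at least 23632 in every other library. The part of any of these in the flagged values was not tested.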

How the results depend on the processing

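Of 464 values recomputed under other settings, 431 kept their direction and their side of the threshold, 5 passed it newly, 1 lost it and 27 changed sign, 0 of these called in either fit. With DESeq2's Wald test 1 of the 8 genes was called in tau IP against EYFP IP (App), against 1.76% of all genes. In IP against pre-IP, EYFP animals alone gave 1 call (6.38% of all genes), and the replicate block of animals gave 3, with Bace1 at -0.28 (edgeR adjusted p = 0.0443), and changed no other call among the 8. On TMM sizes the fractions did not overlap for 2 of the 8 genes (9.72% of all genes), and with an animal left out for 1 to 2 (10.3% to 15.3% of all genes). The Clu ratio in tau animals was -0.26 and, on library totals, -0.34. In pre-IP, Psen2 turned to 0.0576 with voom, 0.0014 at a mean of at least 50 counts, 0.0153 with the sex label and 0.0027 in a single fit of 14 libraries, and Picalm to 0.0013 with the library number range. In IP against pre-IP, App was -0.10 in tau animals alone, Psen2 -0.0512, Apoe 0.25 and Sorl1 0.0008 in EYFP animals alone, and Apoe 0.0379 with voom. The causes were not tested.

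Leaving out each animal moved the pre-IP values from -0.0744 to 0.37 for App, -0.0933 to 0.17 for Psen2, -0.18 to 0.0341 for Bace1, -0.0324 to 0.29 for Apoe, -0.0701 to 0.28 for Clu, -0.0012 to 0.14 for Bin1, -0.14 to 0.0581 for Picalm and -0.30 to 0.0664 for Sorl1. In IP against pre-IP it moved Psen2 from -0.0008 to 0.14 and Apoe from -0.17 to 0.0904. Over all genes, tau IP against EYFP IP had 0 calls with edgeR and with voom, 342 of 19472 with DESeq2, 113 with no filter, 202 in a single fit of 14 libraries and 128 without animal M. The pre-IP comparison had 0 and, with no filter, 44, and the interaction 0, with DESeq2 52, with no filter 67 and without M 56. The lowest level of the 8 genes, 19.1 CPM, lay far above the floor of 3 counts (at most 0.0717 CPM).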
